A study of Homo sapiens with 6 samples.

Results

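A pooled library of short hairpin RNAs (shRNAs), most of them against long non-coding RNAs (lncRNAs), was sequenced before and after growth of HUH7 cells, an established hepatocellular carcinoma (HCC) line. The shRNAs described here are those against a transcript with an ENST, NR_ or XR_ identifier whose target starts at base 100 or earlier on the position scale of the library's annotation. They number 3414 of 7873 shRNAs in the library and of 7242 against lncRNA transcripts, and they are aimed at 1415 transcripts. They are called early shRNAs below, and the 3304 shRNAs against the same transcripts that start after base 100 (1332 transcripts) are called later shRNAs. Of the early shRNAs, 2463 have ENST, 687 have NR_ and 264 have XR_ identifiers as targets.

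The 3 input libraries are the lentiviral plasmid pool itself, and the 3 selected libraries are from HUH7 cells infected with that pool, put in puromycin 2 days after infection for 4 days and kept for 4 weeks under selection. All cells carry an shRNA from the pool, and there is no library from cells sampled soon after infection, so packaging, infection and growth cannot be told apart. The labels do not say that the 3 selected libraries came from separate infections or cultures. The p-values below therefore rest on differences among these 6 libraries, and part of that spread may come from technical steps alone. The input libraries held 2612829, 2323330 and 2554487 reads assigned to shRNAs, and the selected libraries held 1525256, 3008556 and 4013368. Changes are given as log2(fold change) of input over selected, and positive values belong to shRNAs that fell in the selected cells, negative values to those that rose. Values of 0.75 or more with an adjusted p of at most 0.05 in edgeR's quasi-likelihood test are called depleted, and values of -0.75 or less with the same limit on p are called enriched.

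For most of the ENST targets that could be placed, the early position did not stand for the 5′ end of the annotated transcript. Every 21-base target was searched for in the GENCODE release 44 transcript of the same ENST identifier, and 4616 lncRNA shRNAs were placed, none of them at the position that the library's annotation gives. The offset between both positions was the same for all placed shRNAs in 952 of 972 transcripts with at least 2 placed (97.9%), so positions keep their order within a transcript. Its median over 991 transcripts was 234 bases (quartiles 82.5 and 572.5), and it was above 100 bases in 699 of them.

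Of the 2212 early shRNAs that could be placed (64.8%), 325 (14.7%, against 176 transcripts) started within the first 100 bases of the GENCODE transcript, 1887 started further along and 628 started beyond base 500. Their median start was base 291.5 (quartiles 140 and 576, highest 12130), or 38.0% of the way along the transcript, and the later shRNAs had a median of 53.4%. A target in the first exon of a transcript with several exons was seen for 595 of 2009 early shRNAs (29.6%) and for 328 of 1898 later ones (17.3%). The placed early shRNAs are therefore the earlier of each transcript's shRNAs rather than a set against the 5′ end. The 325 are described beside them as the shRNAs near the annotated start. Early shRNAs with NR_ (687) and XR_ (264) identifiers as targets were only matched to the genome. Where they lie along their transcripts is not known.

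An shRNA is cut by Dicer into a small duplex, of which the guide strand is loaded into an Argonaute protein. The guide pairs with its target transcript over its whole length, and its bases 2 to 8, the seed, also decide which other transcripts it can repress in the way of a microRNA. The first exons of lncRNAs hold the start site and lie near the promoter, which many lncRNAs share with a protein-coding gene in divergent orientation. A guide acts only on the isoforms that contain its target.

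The target sequences of the shRNAs that the results turn on are given 5′ to 3′ in the sense of the transcript, in T, as in the library's annotation. Capitals mark target bases 14 to 20, which pair with guide bases 2 to 8. Those shown first are examples of shRNAs that fell, 6 of them among the 8 with the highest log2(fold change).
ENST00000515706 shRNA at base 27: tataaagatacagCTAATCAg
ENST00000584482 shRNA at base 29: atgctcacggcccTGCAAAGt
NR_015381 shRNA at base 41 (TP53TG1): ttaatcttcggagGCTGAGTt
ENST00000434552 shRNA at base 26 (LINC02629): tgctgagatttggAGTACAAa
ENST00000435697 shRNA at base 62 (MIR99AHG): cctgctgtcgataAGATAAAt
ENST00000413666 shRNA at base 41: aggtttaggtatgAGGGACAt
NR_105045 shRNA at base 24 (LINC01843): ggaatttctggcaTGTGGCAg
ENST00000418813 shRNA at base 91 (MIR99AHG): tttactactgagcTGCAAAGg
NR_030343 shRNA at base 49 (NEAT1): tgaatcttagcacTTTGGGAg

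The next targets are examples of shRNAs that rose, first 4 that were rarer in the input, whose calls held without each library, and then 2 with at least 100 normalized counts there.
NR_047481 shRNA at base 47 (JRKL-AS1): taaagggtcacacTCTGTCAc
ENST00000433965 shRNA at base 99 (LINC02532): gcaccagacacagTGCTGTTt
ENST00000502659 shRNA at base 38 (LINC02197): gtgactattgagtGTGGTTAc
ENST00000452624 shRNA at base 32: taaatcagtaaggCCAGGCAc
ENST00000578741 shRNA at base 44: acaatgctgagcgTGGTGGTt
ENST00000444478 shRNA at base 47: gcttgagtcagaaCTTCATTc

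A further set differed most clearly from the later shRNAs of the same transcript.
ENST00000514519 shRNA at base 79: tttccctctacacACAGAAAt
ENST00000458489 shRNA at base 75 (LINC03046): acacactctttcgCATGTAAt
ENST00000510941 shRNA at base 24: tggcgtttctcagCCAGTATc
ENST00000510941 shRNA at base 84: accagcacaagacAACGATGa
ENST00000563278 shRNA at base 71: catggcattgacgATCCCAAt
ENST00000438095 shRNA at base 76 (TTN-AS1): atgctgctgcgacACTCTATg

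The last set holds neighbouring targets in 1 transcript, several of them overlapping, whose shRNAs moved in opposite directions.
ENST00000499430 shRNA at base 21 (STX18-AS1): ttgagtgggccagACACTGTt
ENST00000499430 shRNA at base 63 (STX18-AS1): tttgaacagcacaGGCTTGAa
ENST00000499430 shRNA at base 70 (STX18-AS1): agcacaggcttgaACTGCATg
ENST00000414142 shRNA at base 18 (SNHG17): gtgacgtgtcttcAAGAAGAg
ENST00000414142 shRNA at base 40 (SNHG17): ctgagctgcggtgCTTGTAAg
ENST00000414142 shRNA at base 52 (SNHG17): gcttgtaagggtcTCATTCTg
XR_111621 shRNA at base 59 (SNHG19): ctttgtcccttagCGTTTAAa
XR_111621 shRNA at base 79 (SNHG19): aggtttcttcccgAATCTCAg

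The early shRNAs shared several properties that the position rule did not use. Their targets had a median GC content of 47.6%, as did those of the later shRNAs. A single exact match in the GRCh37 genome was found for 1178 of them (34.5%), more than 100 matches for 1033 (30.3%) and no uninterrupted match for 257 (7.53%). The later shRNAs had 30.9%, 37.1% and 2.24% in the same order. Of the placed early shRNAs, 238 (10.8%) crossed an annotated exon junction, and 76 of the placed later shRNAs (3.63%) did. The target lay within a protein-coding gene on the opposite strand for 143 placed early shRNAs (6.46%) and 161 later ones (7.68%).

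As a group, the early shRNAs kept their share of the reads through selection. They took 41.9% of the reads in each of the 3 input libraries and 42.3%, 42.4% and 42.5% in the selected libraries. The later shRNAs took 42.2%, 42.1% and 42.1% of the input reads and 42.3%, 42.1% and 42.2% of the selected reads. More early shRNAs were without a read after selection, with 109, 122 and 112 at 0 in the input libraries and 213, 192 and 166 in the selected libraries. The later shRNAs also had more at 0 after selection, with 3.18%, 3.15% and 3.15% of them in the input and 5.90%, 4.66% and 3.84% in the selected libraries. Of all early shRNAs, 82 had no read in any input library and 53 had none in any of the 6 libraries, so these were hardly represented in the pool that the cells received.

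An average of at least 10 counts over the 6 libraries was reached by 3134 early shRNAs, while 280 were not tested. Among those tested, 214 were depleted (6.83%) and 200 were enriched (6.38%). Over all 7232 tested shRNAs of the library, the shares were 6.83% depleted and 5.85% enriched. The remaining 2720 early shRNAs were called in neither direction. At an adjusted p of 0.05 or less without a limit on the fold, 451 fell (14.4%, beside 15.4% of all tested shRNAs) and 574 rose (18.3%, beside 17.4%). The share of early shRNAs that were depleted thus lay at the level of the whole library, and the share that were enriched lay slightly above it.

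The median log2(fold change) of the early shRNAs was -0.03 (quartiles -0.35 and 0.32), and that of the later shRNAs was -0.01 (quartiles -0.32 and 0.35). Of the 3054 later shRNAs that were tested, 6.58% were depleted and 168 were enriched (5.50%). All 3 selected values lay below all 3 input values in 751 early shRNAs (24.0%, beside 25.6% of all tested) and above them in 836 (26.7%, beside 25.6%). These shares describe the sets, and shRNAs are not replicates, so no test was run over them.

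Calls were most frequent among rare shRNAs. When all tested shRNAs were split into 4 equal groups by input abundance, 91 of 807 early shRNAs in the lowest group were depleted and 115 were enriched. In the highest group, 20 of 744 were depleted and 4 were enriched. The later shRNAs showed the same trend, with 82 depleted and 96 enriched of 770 in the lowest group and 17 and 9 of 760 in the highest. Early shRNAs had a median of 269.8 normalized counts in the input (counts scaled to a common library size), and the later shRNAs had 284.1. The medians were 158.0 for depleted, 118.3 for enriched and 298.5 for the remaining early shRNAs.

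The shares of calls were also counted along the annotation's position scale, beside 6.83% depleted and 5.85% enriched over all tested shRNAs. Of 254 shRNAs that started at bases 1 to 25, 5.91% were depleted and 6.30% enriched. The shares were 6.23% and 6.32% of 1124 at bases 26 to 50, and 7.35% and 6.44% of 1756 at bases 51 to 100. Beyond the limit, they were 6.39% and 5.74% of 2490 that started after base 100 and up to base 200, and 7.55% and 5.31% of 980 after base 200 and up to base 500. Further along, up to base 1000, 5 of 53 were depleted (9.43%) and 2 were enriched (3.77%). At bases 91 to 95, 18 of 189 were depleted (9.52%) and 11 were enriched (5.82%). Just inside the limit, at bases 96 to 100, 16 of 186 shRNAs were depleted and 14 enriched, with a median log2(fold change) of -0.02. Just outside it, over the next 5 bases, 13 of 188 were depleted and 13 enriched, with a median of -0.05.

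Among the 292 tested shRNAs near the annotated start, 12 were depleted (4.11%) and 14 were enriched (4.79%), both below the shares of the whole library. Early shRNAs placed further along had 106 depleted (6.16%) and 118 enriched (6.86%) of 1721. In the first exon of a transcript with several exons, 21 of 532 were depleted (3.95%) and 32 enriched (6.02%). The counts were 47 and 54 of 737 in the second exon, and 35 and 32 of 559 in later exons. Of 132 early shRNAs within a protein-coding gene on the opposite strand, 4 were depleted (3.03%) and 14 were enriched (10.6%). These differences were not tested, since shRNAs of a transcript share a target and the placed shRNAs are only a part of the early ones.

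The 26 called shRNAs near the annotated start covered both directions, with input means from 21.2 to 740.7 normalized counts. LINC00491, an intergenic lncRNA, was the target of ENST00000510145 shRNA at base 61, at base 92 of the GENCODE transcript in exon 1 of 2. It had 124.4, 155.8 and 143.9 normalized counts in the input and 26.9, 19.7 and 44.2 in the selected libraries, so that the groups were far apart. The log2(fold change) was 2.18 ± 0.32 (SE, n = 3 and 3, edgeR adjusted p = 0.00192). Its target matched 914 places in the genome, and ENST00000444478 shRNA at base 47, at GENCODE base 61 and chr20:48782959-48782979, matched a single place. It rose from 222.6, 245.6 and 201.8 to 729.3, 455.3 and 636.2 normalized counts, a log2(fold change) of -1.44 ± 0.18 (edgeR adjusted p = 0.00119). The whole set of depleted shRNAs near the start ran from 0.78 to 5.22 on this scale, the highest value belonging to ENST00000416327 shRNA at base 59 against LINC01687, with 28.4 normalized counts in the input, and the enriched ones ran from -1.60 to -0.99.

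The early shRNAs that fell furthest were rare in the input and all but absent after 4 weeks. The NR_038989 shRNA at base 76 against LINC01016, an intergenic lncRNA, had 46, 40 and 49 reads in the input libraries and 0 in each selected library. It was at least 50.3-fold lower, taking 3 reads over the 3 selected libraries as the limit that a count of 0 allows. The ENST00000515706 shRNA at base 27, with its target at chr5:85676690-85676710, had 42, 31 and 23 input reads and 0 in all selected libraries, at least 35.7-fold lower. The ENST00000584482 shRNA at base 29, whose target crossed an exon junction, had 32, 31 and 24 input reads and again 0, at least 32.4-fold lower.

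The next 5 had a single read among the selected libraries. For TP53TG1, a lncRNA named as a target gene of p53, the NR_015381 shRNA at base 41 at chr7:86974371-86974391 had 28, 32 and 22 input reads and 0, 1 and 0 selected reads. The ratio of normalized reads was 91.6 (95% exact interval 16 to 3661, counting error only, since PCR reads without molecular identifiers are not independent molecules). The ratios were 84.9 (14.8 to 3396) for ENST00000434552 shRNA at base 26 against LINC02629 and 80.4 (14 to 3220) for ENST00000435697 shRNA at base 62 against MIR99AHG. MIR99AHG is the host gene of miR-99a and let-7c, and this target lay at chr21:17791837-17791857. The ratios were 75.9 (13.2 to 3043) for ENST00000413666 shRNA at base 41 and 67.0 (11.6 to 2690) for XR_426584 shRNA at base 40. The target of XR_426584 shRNA at base 53 overlaps that at base 40, but this shRNA was enriched (log2(fold change) -0.88, edgeR adjusted p = 0.00307). That enriched call was lost without selected library 3 (-0.72). The 8 shRNAs were chosen among calls whose input and selected libraries did not overlap. Their calls held when any 1 library was left out.

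Later shRNAs are described here for LINC01016, TP53TG1 and MIR99AHG only, as examples picked after their values were seen. Against LINC01016, both tested later shRNAs were called in neither direction, with log2(fold change) of -0.19 for NR_038989 shRNA at base 125 and 0.37 for NR_038989 shRNA at base 196. Against TP53TG1, they were -0.27 for NR_015381 shRNA at base 122 and 0.08 for NR_015381 shRNA at base 242. For MIR99AHG, by contrast, ENST00000435697 shRNA at base 212 was itself depleted, from 158.8 to 84.7 normalized counts (log2(fold change) 0.93, edgeR adjusted p = 0.0129). A further early shRNA against MIR99AHG, ENST00000418813 shRNA at base 91, fell from 105.2, 101.2 and 115.9 to 3.59, 21.5 and 37.5 normalized counts (2.22 ± 0.49, adjusted p = 0.00967). Its call was lost without input library 3 (log2(fold change) 2.19, adjusted p = 0.0506).

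At the enriched end, the largest rises again started from few reads. The ENST00000503484 shRNA at base 26 against NNT-AS1, a lncRNA antisense to the gene of a mitochondrial transhydrogenase, rose from 35.4, 48.9 and 33.1 to 379.0, 190.0 and 268.5 normalized counts. Its log2(fold change) was -2.82 ± 0.30 (edgeR adjusted p = 0.000675). The ENST00000433965 shRNA at base 99 against LINC02532, at chr6:107195093-107195113, rose from 27.3, 25.0 and 20.7 to 170.7, 116.5 and 154.7, a value of -2.59 ± 0.27. The lowest selected library was thus several times above the highest input library for both. Another early shRNA against LINC02532, ENST00000433965 shRNA at base 43, was depleted (0.88 ± 0.15, edgeR adjusted p = 0.0037).

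The ENST00000502659 shRNA at base 38 against LINC02197 had 12.1, 10.2 and 14.5 normalized counts in the input and 61.1, 72.6 and 75.7 in the selected libraries (-2.50 ± 0.34). The ENST00000452624 shRNA at base 32, at chr6:93812854-93812874, had 53.6, 35.2 and 52.8 and then 242.5, 238.4 and 210.3 (-2.28 ± 0.22). The NR_047481 shRNA at base 47 against JRKL-AS1 had 6, 3 and 7 input reads and 23, 50 and 36 selected reads (-2.67 ± 0.51). These 5 calls held when any 1 library was left out. The JRKL-AS1 shRNA had fewer than 10 reads in each input library, so it passed the count filter only through its selected libraries.

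The other 3 of the 8 strongest rises rested on very few input reads, and their calls were lost when single input libraries were left out. These 3 also passed the count filter only through their selected libraries. The ENST00000528156 shRNA at base 55 against RAB30-AS1 had 3, 0 and 3 input reads and 35, 18 and 6 selected reads (-3.51 ± 1.17, edgeR adjusted p = 0.0461). The adjusted p was 0.115 without input library 1, 0.135 without input library 2 and 0.110 without input library 3. For NR_110063 shRNA at base 30 against LINC02421, with 4, 4 and 6 input reads, it was 0.0669, 0.0630 and 0.0529 in the same order. For ENST00000400192 shRNA at base 50, with 4, 12 and 4 input reads, it was 0.0578 without input library 1 and 0.0568 without input library 3.

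Among early shRNAs with at least 100 normalized counts in the input, the falls reached a log2(fold change) of 2.95 and the rises -1.56. The NR_105045 shRNA at base 24 against LINC01843, at chr5:133842505-133842525, had 100.2, 100 and 102.5 normalized counts in the input and 0, 15.2 and 18.8 in the selected libraries (2.95 ± 0.56, edgeR adjusted p = 0.00521). The ENST00000621679 shRNA at base 47 fell from 99.1, 122.8 and 91.1 to 23.4, 14.3 and 16.1 (2.58 ± 0.31). The ENST00000366253 shRNA at base 72, whose target lies in the last of 3 exons and matches 261 places in the genome, fell from 111.3, 89.8 and 102.5 to 12.6, 8.96 and 28.1 (2.53 ± 0.41). The groups were separated by more than their spread in each of these, although the first selected library was at 0 for LINC01843.

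Of those that rose, NR_034003 shRNA at base 27 went from 177.0, 160.3 and 166.6 to 555.1, 426.6 and 513.6 normalized counts (-1.56 ± 0.14, edgeR adjusted p = 0.000652). The ENST00000578741 shRNA at base 44, at chr18:19793891-19793911 in exon 1 of 2, went from 173.0, 164.8 and 160.4 to 427.5, 469.6 and 454.7 (-1.44 ± 0.12). The selected libraries of this shRNA lay within a narrow range. The ENST00000446145 shRNA at base 81 had a value of -1.46 ± 0.15 with 2802 genome matches, and ENST00000564832 shRNA at base 91 had -1.44 ± 0.20 with 7138. The calls of these rises and of the 3 falls held when any 1 library was left out.

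An shRNA can be compared with the later shRNAs of its own transcript within each library. For this, its log2 CPM minus the mean log2 CPM of the tested later shRNAs was compared between input and selected libraries with limma, and a difference was called at an adjusted p of at most 0.05. Of 2780 early shRNAs with such a partner, 348 fell more than the later shRNAs (12.5%, beside 12.6% of all 5982 shRNAs fitted) and 417 fell less or rose more (15.0%, beside 15.5%). The median difference was -0.01 (quartiles -0.45 and 0.45). Near the annotated start, 30 of 253 fell more and 43 fell less or rose more. Later shRNAs compared with the others of their transcript gave 355 (13%) and 434 (15.9%) of 2738.

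Without selected library 1, which had the fewest reads, 555 early shRNAs fell more. Without any 1 input library, between 88 and 96 fell more and between 144 and 162 fell less or rose more (94 and 145 without input library 1, 96 and 162 without 2, 88 and 144 without 3). The number of depleted early shRNAs was 112, 121 and 110 without input libraries 1, 2 and 3. The shares over all shRNAs in the same settings are not given, so these counts do not set the early shRNAs apart.

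Among the clearest of these differences, the ENST00000514519 shRNA at base 79 lay 0.39, 0.22 and 0.33 above its 2 later shRNAs in the input and 1.59, 1.45 and 1.60 below them in the selected libraries on the log2 CPM scale. The difference was 1.86 ± 0.20 (SE, n = 3 and 3, limma adjusted p = 0.00214). This shRNA fell from 193.4 ± 5.83 (SD) to 69.0 ± 7.46 normalized counts, while ENST00000514519 shRNA at base 124 rose (log2(fold change) -1.24) and ENST00000514519 shRNA at base 244 fell by less (0.40). The target, in exon 2 of 2, was at chr5:1968721-1968741.

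The ENST00000458489 shRNA at base 75 against LINC03046 starts at base 100 of the GENCODE transcript, in exon 1 of 2, at chr10:103468039-103468059. It went from 404.7, 425.2 and 422.2 to 242.5, 248.3 and 287.3 normalized counts, a log2(fold change) of 0.68, below the limit for depleted. The later ENST00000458489 shRNA at base 106 was enriched at -0.95. The difference within the transcript was 1.61 ± 0.17 (limma adjusted p = 0.00214). For GARS1-DT, a lncRNA divergent from the gene of glycyl-tRNA synthetase, the difference of the early shRNA at base 47 came from the later shRNA alone. The ENST00000426529 shRNA at base 47 had 221.6, 188.7 and 191.5 and then 237.1, 197.2 and 158.0 normalized counts (log2(fold change) 0.04, edgeR adjusted p = 0.889), while its single later shRNA was enriched at -1.72. The value within the transcript was 1.72 ± 0.18. Another early shRNA, ENST00000426529 shRNA at base 56, whose target overlaps that at base 47, was enriched like the later one (-1.28, edgeR adjusted p = 0.00153). The ENST00000562493 shRNA at base 93, with 10605 genome matches, had 1.51 ± 0.15, its single later shRNA being enriched at -1.08.

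In the other direction, the TTN-AS1 shRNA stood out by its even values. TTN-AS1 is transcribed antisense to the gene of titin, the giant sarcomere protein, and the ENST00000438095 shRNA at base 76 lies opposite it at chr2:179406993-179407013, at GENCODE base 99 in exon 2 of 4. It rose from 449.2, 429.7 and 399.5 to 788.6, 920.5 and 825.7 normalized counts (log2(fold change) -0.99 ± 0.10, edgeR adjusted p = 0.000652). Of its 3 later shRNAs, ENST00000438095 shRNA at base 189 was depleted at 1.61, and those at bases 145 and 164 had values of 0.18 and 0.19. The difference within the transcript was -1.63 ± 0.12 (limma adjusted p = 0.00122).

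The ENST00000563278 shRNA at base 71, at chr15:75661521-75661541 in a single-exon transcript, rose from 653.5, 657.1 and 666.5 to 1477, 1277 and 1102 normalized counts (-0.96 ± 0.10). All 4 of its later shRNAs had log2(fold change) above 0, and ENST00000563278 shRNA at base 340 was depleted at 1.61. The difference was -1.66 ± 0.12 (limma adjusted p = 0.00122). Both tested early shRNAs of ENST00000510941 differed from 1 later shRNA that had nearly vanished, ENST00000510941 shRNA at base 116, with 39.4 normalized counts in the input and 1.12 in the selected libraries. The difference was -4.56 ± 0.30 for the shRNA at base 24, which itself rose by less than the fold limit (-0.71), and -3.88 ± 0.28 for the shRNA at base 84, whose own value was -0.02. For ENST00000523840 shRNA at base 77, the difference of -2.24 ± 0.14 became -0.32 (limma adjusted p = 0.256) without input library 1, when 1 of its 2 later shRNAs no longer passed the count filter.

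Over transcripts, the mean log2(fold change) of early minus later shRNAs had a median of -0.01 (quartiles -0.36 and 0.38) in the 1274 transcripts with both, and the early shRNAs were lower after selection in 627 of them. A depleted early shRNA was found for 198 transcripts. Of the 179 of these with a tested later shRNA, 25 also had a depleted later shRNA (14%), and 193 of all 1309 transcripts with tested later shRNAs had one (14.7%). An enriched later shRNA was found for 19 of the 179. Of the 166 transcripts with an enriched early shRNA and a tested later one, 19 had an enriched later shRNA (11.4%, beside 12.3% of the 1309), and 19 had a depleted one. In both directions, the share with a later shRNA called the same way lay close to the rate over all transcripts.

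In 49 of the 1026 transcripts with at least 2 tested early shRNAs, at least 2 were called, 103 shRNAs in all. All called shRNAs were depleted in 12 of these transcripts and enriched in 9, while 28 transcripts held calls in both directions. Targets that overlap each other formed 981 pairs among 1544 early shRNAs. Both members were called in 20 of the 826 pairs with both tested, 7 pairs in the same direction and 13 in opposite directions. Over all tested shRNAs, 6.83% were depleted and 5.85% enriched. The counts of transcripts and pairs were not tested against those of unrelated shRNAs, so they are a description only. Of the 103 calls, 46 held when any 1 library was left out.

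STX18-AS1, antisense to the gene of a syntaxin of the endoplasmic reticulum, had the overlapping pair of ENST00000499430 shRNAs at bases 63 and 70 and another at base 21, all in exon 2 of 4. The shRNA at base 21, at chr4:4546471-4546491, rose from 128.5, 134.2 and 121.1 to 294.6, 307.4 and 337.5 normalized counts (-1.30 ± 0.14, edgeR adjusted p = 0.00078). This call held without each library. The shRNA at base 70, at chr4:4546520-4546540, fell from 68.8, 69.4 and 74.5 to 5.39, 16.1 and 32.8 (1.84 ± 0.48), with adjusted p of 0.0715, 0.0706 and 0.0776 without input libraries 1, 2 and 3. The shRNA at base 63 lay at the fold limit (0.75 ± 0.13), and was below it without input library 3 (0.74) and without selected library 2 (0.65).

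Calls in both directions were also seen for SNHG17 and SNHG19, 2 hosts of small nucleolar RNAs, the guides of ribosomal RNA modification. For SNHG17, the ENST00000414142 shRNA at base 40, at chr20:37055062-37055082, fell from 60.7, 61.4 and 64.2 to 1.80, 12.5 and 9.38 normalized counts (2.82 ± 0.48, edgeR adjusted p = 0.00333). The ENST00000414142 shRNA at base 52, which overlaps it, rose from 77.9, 89.8 and 101.4 to 172.5, 157.7 and 180.8 (-0.92 ± 0.19). The fall held without each library, and the rise had an adjusted p of 0.0529 without input library 1. For SNHG19, the XR_111621 shRNA at base 79 rose from 60.7, 56.8 and 52.8 to 165.3, 181.0 and 107.8 (-1.40 ± 0.25), while the XR_111621 shRNA at base 59 fell from 534.2, 493.4 and 543.3 to 197.6, 331.6 and 330.1 (0.85 ± 0.18). The latter was below the fold limit without selected library 1 (0.66).

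A few transcripts had early shRNAs that moved together. Both early shRNAs against LINC01843 were depleted, NR_105045 shRNA at base 24 at 2.95 and NR_105045 shRNA at base 53 at 0.83 ± 0.09, the latter from 758.8, 756.0 and 750.3 to 450.9, 388.1 and 434.6 normalized counts. Both calls held without each library. The LINC01843 target at base 53 matched 1821 places in the genome. In ENST00000580085, which lies opposite CRLF3, the gene of a cytokine receptor-like factor, the shRNAs at bases 75 and 100 rose with log2(fold change) of -0.94 ± 0.18 and -0.88 ± 0.11. Their differences from the 1 later shRNA of this transcript were -0.03 and 0.01 (limma adjusted p = 0.920 and 0.961). The call at base 75 was lost without selected library 1 (-0.72). The ENST00000506416 shRNA at base 24, near the annotated start at GENCODE base 34, was depleted at 0.85 ± 0.18, and ENST00000506416 shRNA at base 95 at 2.43 ± 0.57. The former had an adjusted p of 0.0544 without input library 3, and the latter had 0.0539 without input library 1. The ENST00000506416 target at base 95 matched 602 places in the genome.

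The lncRNAs were also grouped by the form of their symbol. Over all tested shRNAs, 6.83% were depleted and 5.85% enriched. Antisense lncRNAs had 22 depleted and 23 enriched of 360 tested early shRNAs (6.11% and 6.39%). Divergent lncRNAs had 10 and 14 of 153 (6.54% and 9.15%), and the later shRNAs against them had 15 and 7 of 139 (10.8% and 5.04%). Intergenic lncRNAs with a LINC symbol had 55 and 46 of 857 (6.42% and 5.37%). Other symbols had 28 and 18 of 391 (7.16% and 4.60%), and transcripts without a symbol had 90 and 89 of 1279 (7.04% and 6.96%). Hosts of microRNAs had 4 and 4 of 50 (8% and 8%), and hosts of small nucleolar RNAs had 5 and 6 of 43 (11.6% and 14%). The later shRNAs against the same hosts of small nucleolar RNAs had 6 depleted and 1 enriched of 47 (12.8% and 2.13%). Both counts rest on few shRNAs, and the difference was not tested. Among the early calls, those against SNHG5, SNHG11 and SNHG12 were lost when single libraries were left out, as were some against SNHG17 and SNHG19. The median log2(fold change) lay between -0.07 and 0.00 in these lists, beside -0.01 over all tested shRNAs, and the single shRNA against an intronic or overlapping lncRNA was called in neither direction.

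Of lncRNAs that are widely studied in cancer, 28 symbols had tested early shRNAs, 11 of 121 depleted (9.09%, beside 6.83% of all tested shRNAs) and 12 enriched (9.92%, beside 5.85%). Of these 23 calls, 7 held when any 1 library was left out. NEAT1, the scaffold RNA of nuclear paraspeckles, had the NR_030343 shRNA at base 49 fall from 100.2, 101.2 and 90 to 30.5, 26 and 22.1 normalized counts (1.91 ± 0.27, edgeR adjusted p = 0.00179), and this call held without each library. Its target matched 4 places in the genome, and the other of the 2 tested early shRNAs against NEAT1 was not called (0.10). None of the 3 later shRNAs of this NEAT1 transcript was called, with log2(fold change) of -0.28, 0.26 and -0.03 at bases 102, 176 and 238 (NR_030343 shRNA at base 102, NR_030343 shRNA at base 176 and NR_030343 shRNA at base 238), and the difference from them was 1.83 ± 0.28 (limma adjusted p = 0.00476).

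OIP5-AS1, a cytoplasmic lncRNA known to bind RNA-binding proteins and microRNAs, had 10 tested early shRNAs with log2(fold change) from -0.97 to 0.36 and 1 call. This was the ENST00000557993 shRNA at base 57, in exon 4 of 4, which rose from 212.4, 193.3 and 200.8 to 404.2, 440.1 and 348.9 normalized counts (-0.97 ± 0.14, edgeR adjusted p = 0.00166) and has 11649 genome matches. SNHG5 had 2 depleted of 11, with values from -0.62 to 1.04, and LINC00511 had 2 depleted of 9, from -0.55 to 1.66. None of these 4 calls held without each library. MALAT1, TUG1 and HULC, the last a lncRNA first described in HCC, each had 2 tested early shRNAs and no call, with values from -0.10 to 0.37, from -0.04 to 0.04 and from 0.17 to 0.36.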

How the data were processed

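The authors trimmed reads with Cutadapt 1.4.2, aligned these by BWA 0.7.10 to the library's hairpins and, with SAMtools 1.3 and Perl programs of their own, deposited whole, unnormalized counts per shRNA, one column for each of the 6 libraries. The deposited annotation gives the target sequence, transcript and start. The members, lists and naming rules were chosen with earlier results of these data known.

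The count test was the quasi-likelihood test of edgeR 4.0.16 (R 4.3.3) after TMM scaling, with group as the only term and 1 spread shared by both groups, over all 7232 shRNAs that averaged 10 or more counts, with Benjamini-Hochberg adjustment over all of them. Normalized counts are scaled to the mean TMM-adjusted library size. SE is the log2(fold change) divided by the square root of F. The comparison within a transcript used limma 3.58.1 with a mean trend on log2 CPM (prior count 2). A count of 0 in a group was bounded with 3 reads, and exact intervals are at 95%. Both fits were tested on simulated data with 200 changed shRNAs. Targets were searched without mismatches in GRCh37 and GENCODE release 44 mapped to it, and a RefSeq table of another build gave names only.

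Named are the 8 shRNAs with the highest and lowest log2(fold change) among calls without overlap between groups, 5 each among those with at least 100 normalized counts in the input, calls in transcripts with 2 or more, the 5 smallest adjusted p in each direction within transcripts, and calls against widely studied lncRNAs. The text gives examples of the larger groups. Shared seeds and individual other shRNAs were picked after their values were seen. Alternatives were RLE size factors, library totals, DESeq2 1.42.0, no filter, a minimum mean count of 100, a robust spread, the replicate block, other position and fold limits, single genome matches, and each library left out; within transcripts, a prior of 0.5, no trend and at least 3 later shRNAs. The depth sets the precision: counts of a few reads carry wide errors, and intervals cover counting error only. Some targets' sequences and lncRNAs are not reported here.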

Additional observations from a re-analysis of the deposited data

How the results depend on the processing

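The number of depleted early shRNAs was 132 at a minimum mean count of 100, 451 without a fold limit and between 110 and 246 with 1 library left out. The number enriched was 574 without a fold limit and 141 at a minimum mean count of 100. It lay between 140 and 223 with 1 library left out. In the main fit, more early shRNAs were depleted than enriched (214 and 200). The order was the other way without a fold limit, at that minimum and without each input library. Of the early shRNAs within 100 bases of the GENCODE start, 4.11% were depleted, an alternative chosen after seeing the data, as was limma voom with group weights. With at least 3 later shRNAs in the transcript, which leaves fewer shRNAs to fit, 96 fell more and 132 fell less or rose more. With 1 library left out, between 88 and 555 fell more and between 144 and 597 fell less or rose more. The counts in this paragraph are given without the shares over all shRNAs in the same settings. At a minimum mean count of 100, 4.98% of shRNAs after base 200 and up to base 500 were depleted. The cause of the other changes was not tested. None of the alternatives that were run reversed the direction of a named shRNA. Over the named shRNAs, 1749 alternative values stayed on their side of the threshold and 226 did not, 42 to 49 of them without each of the input libraries. Abundance in the pool limits what can be seen, since 280 early shRNAs were too rare to test.

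The labels number the replicates 1 to 3 in both groups, but the numbers did not pair the libraries. The correlation of deviations between libraries of the same number was -0.01, 0.01 and -0.03. With the replicate number as a block, 228 early shRNAs were depleted and 184 enriched, 310 fell more than the later shRNAs and 372 fell less or rose more, and 7 named calls were lost.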

Other observations

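The seed, guide bases 2 to 8, was on average poorer in GC in early shRNAs that fell and richer in those that rose. The mean GC content of the 7 paired target bases was 38.5% in the 214 depleted, 46.4% in the 200 enriched and 42.0% in the 2720 remaining early shRNAs. The median GC content of the whole target was 47.6% in each of the 3 groups. A guide that begins with A or U, which Argonaute proteins are known to favour, was found in 57.9% of the depleted, 54.5% of the enriched and 62.2% of the remaining early shRNAs. A single genome match was found in 33.6%, 34.0% and 33.1% of them. The median input was 158.0 normalized counts for the depleted, 118.3 for the enriched and 298.5 for the remaining early shRNAs, and the part of abundance in these differences was not tested.

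The tested early shRNAs used 1901 different seeds. In 39 seeds, called early shRNAs against at least 2 transcripts shared the seed, 92 shRNAs in all. The called shRNAs of a seed were all depleted in 12, all enriched in 2 and went both ways in 25. The seed with the most depleted members pairs with GCACTTT in the target, and of its 26 early shRNAs against 26 transcripts, 5 were depleted (19.2%, beside 6.83% of all tested shRNAs) and 2 enriched (7.69%, beside 5.85%). The seed was picked for its number of depleted shRNAs, so these shares are a description. Their median log2(fold change) was 0.04, with a range from -1.35 to 1.29, and 16 of the 26 targets matched more than 100 places in the genome. A single tested shRNA outside the early ones had this seed, and it was called in neither direction. The same 7 bases form the seed of 8 human mature microRNAs in RefSeq (GRCh38.p14), among them members of the miR-17 family, known for a role in cell proliferation. They are shown with bases 2 to 8 in capitals, because the guides of these 26 shRNAs carry the same 7 bases.
hsa-miR-17-5p: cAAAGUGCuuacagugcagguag
hsa-miR-93-5p: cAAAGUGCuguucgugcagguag
hsa-miR-106b-5p: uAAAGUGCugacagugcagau

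The seed that pairs with TGCAAAG was held by 2 early shRNAs, ENST00000584482 shRNA at base 29 and ENST00000418813 shRNA at base 91. Both were depleted, the first at least 32.4-fold, with no read in the selected libraries, and the second with a log2(fold change) of 2.22. These seeds were picked after their values were seen, and shared seeds were not tested as a group.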
